A study of Mus musculus with 12 samples.

Results

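RNAs of 18 nt or more whose 5′ end lay 0 to 5 nt from an annotated transcript start were taken from 12 small-RNA libraries of mouse embryonic stem cells, and are called start RNAs here. They were found for 7350 of the 21769 protein-coding genes admitted, as 30767 distinct sequences; the whole annotation (GENCODE M21) holds 21951 protein-coding genes, and those with symbols beginning Rpl, Rps, Hist or mt- were left out. A read had to match a transcript exactly, in sense, and to occur in no other annotated gene. The start RNAs of 5109 genes were seen in the 8 libraries made by circularization and those of 5435 genes in the 4 made by ligation. Only 30 genes had a start read in all 12 libraries, and 2708 had one in 1 library alone.

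The study asked which small RNAs made near promoters by RNA polymerase II are carried by Argonaute. A gel slice selected RNA of 18 to 75 nt. The circularization protocol takes RNA whatever its 5′ end, and the ligation protocol (NEBNext) needs a 5′ phosphate. Of the 8 circularization libraries, 4 came from the clonal line TT-FHAgo2, which makes Ago2 with FLAG and HA tags from a gene under doxycycline control, and 4 from the clonal line TT-Ago2, with untagged Ago2. Both lines were kept in doxycycline at 0.1 µg/mL and induced at 2.5 µg/mL, the dose stated to give wild-type Ago2 levels. Each line gave 2 FLAG immunoprecipitates (IPs) and 2 inputs, here replicates A (reads of up to 50 nt) and B (up to 51 nt). The untagged line shows what the FLAG antibody brings down without a tag. The 4 ligation libraries, all unselected RNA read to 40 nt, were TT-FHAgo2 at 2.5 µg/mL doxycycline, TT-FHAgo2 labelled No Dox, a wildtype line and a Dicer null line, the latter 2 without doxycycline, with 1 library each. Protocol and run type therefore cannot be told apart. Nothing in the labels ties replicates to separate cultures, so each p-value reflects only how these libraries vary, which may be technical variation.

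RNA polymerase II usually starts a transcript at a purine that follows a pyrimidine, and soon stalls a short way downstream. The new RNA receives a methylated guanosine cap at its 5′ end, which hides the phosphate a ligase needs. Reverse transcriptase that reaches a cap often adds an unencoded base, which appears in the read as an extra 5′ G. Genes of the translation machinery are unusual in starting at a C within a run of pyrimidines, called a 5′ TOP motif. Argonaute holds small RNAs of a narrow range of length, most of them cut by Drosha and Dicer. In mouse cells some small RNAs that it holds come from hairpins at the very start of protein-coding transcripts.

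The sequences below show where the start RNAs begin. The first set gives the genomic strand around 6 main 5′ ends of the circularization libraries, with 10 bases before the RNA and the first transcribed base in capitals (RefSeq sequence, GRCm38.p6).
Txnip: gccgcttgacActctcctcctctggtctcg
Med21: gcgctctagcAgcttttgcgcacccttgcg
B4galt5: ctcccgcctcAtgtggcccggcccgcggcg
Hnrnph1: cccgcttatcAtttctcctcagccacgccg
Tuba1b: cctccgcctcAttgcgttacttacctcgac
Fau: ccacttcttcCtctttcttgactccatctt
The first 5 begin at an A that follows a C, and Fau, a TOP gene that encodes a ribosomal protein fused to a ubiquitin-like protein, begins at a C. These pieces lie at chr3:96557950-96557979 for Txnip, chr6:146642569-146642598 for Med21, chr2:167349159-167349188 (minus strand) for B4galt5, chr11:50377758-50377787 for Hnrnph1, chr15:98934414-98934443 (minus strand) for Tuba1b and chr19:6057941-6057970 for Fau.

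The second set gives RNAs as sequenced, with their first base in capitals. The Med21 RNA is shown with and without the unencoded base. Zfp986, Zdhhc3, Fut9, Tmem201 and Sipa1 were higher in the tagged IP than in its input, and the Sipa1 RNA of 41 nt is given by its first 30 bases. Txndc9 and Chchd2 are from the ligation libraries.
Med21: Agcttttgcgcacccttgcgtgcgtggt
Med21 with extra base: Gagcttttgcgcacccttgcgtgcgtggt
Zfp986: Attctccttgtaccttggctgcct
Zdhhc3: Ctgccgccaccgcctggagctcc
Fut9: Ccctccccctctcctggctgct
Tmem201: Tctcttttgcggcccgcgccc
Sipa1: Atcctggccccgcccccaggcggagcggag
Txndc9: Atactgtgatgcagattctgagtg
Chchd2: Atcggtgagacttcgagc
The RNAs of Zfp986 (chr4:145868795-145868818), Zdhhc3 (chr9:123113140-123113162, minus strand), Sipa1 (chr19:5663666-5663706, minus strand) and Txndc9 (chr1:37996635-37996658, minus strand) lie in annotated 5′ UTRs. Those of Med21 (chr6:146642579-146642606), Tmem201 (chr4:149737975-149737995, minus strand), Fut9 (chr4:25799832-25799853, minus strand) and Chchd2 (chr5:129887255-129887272, minus strand) were matched to the first exon of a transcript with no coding sequence. Each RNA is placed by a single matched transcript, which does not exclude others of the gene. The Med21 5′ end also lies 0 nt from a RefSeq start of Med21. None crosses a splice junction.

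Depth ran from 14474875 to 78762632 reads a library, of which 1370 to 13041 were start reads. Stem cell markers were present in every library: the 6 fixed markers (Pou5f1, Nanog, Sox2, Esrrb, Zfp42 and Dppa5a) summed to 2.43 to 13.7 CPM (counts per 1000000 reads of the file) over the first 200 nt of their transcripts. Of their start RNAs, 5 of the 6 genes had a read, with Sox2 at 0. The 6 fibroblast markers had no start read, and of them Thy1 alone had a read in the first 200 nt, in 1 library (0.0565 CPM).

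The level of exactly matched start RNAs was not separated by protocol. It was 182, 87.0, 171 and 155 CPM in the inputs (tagged A and B, untagged A and B) and 101, 125, 126 and 166 CPM in the ligation libraries (with doxycycline, without, wildtype, Dicer null). The ranges overlapped, and the means of 149 ± 42.5 and 129 ± 26.7 CPM (SD, n = 4 each) gave p = 0.457 by an exact two-sided permutation test. CPM values are shares of all reads, and in bulk RNA fewer cells with a transcript cannot be told apart from less of it per cell. These levels leave out reads with an extra, unencoded 5′ G. Where the base before was known, the inputs held 5085 such reads, beside 9430 exact start reads. The ligation libraries held 31, beside 23227 exact ones. A level that includes them was not tested. Among the exact matches the kind of RNA differed. In the inputs the start RNAs were gathered at the annotated first base, and in the ligation libraries they were not. Of 16 measures compared between these 2 sets of 4 libraries, 12 had no overlap, for which the exact p is the smallest that 4 against 4 allows (0.0286, and 0.0381 after Benjamini-Hochberg adjustment over the 16).

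In the inputs 39.7, 34.9, 39.8 and 33.1% of start reads began exactly at an annotated start, and 8.98 to 16.9% at each of the next 5 positions. In the ligation libraries the first position held 17.8, 19.3, 18.3 and 20.2%, and the next 5 between 14.7 and 17.5% each, which is nearly flat. The means at the first position were 36.9 ± 3.41% and 18.9 ± 1.08% (SD, n = 4 each; exact permutation p = 0.0286).

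**Figure D1:**
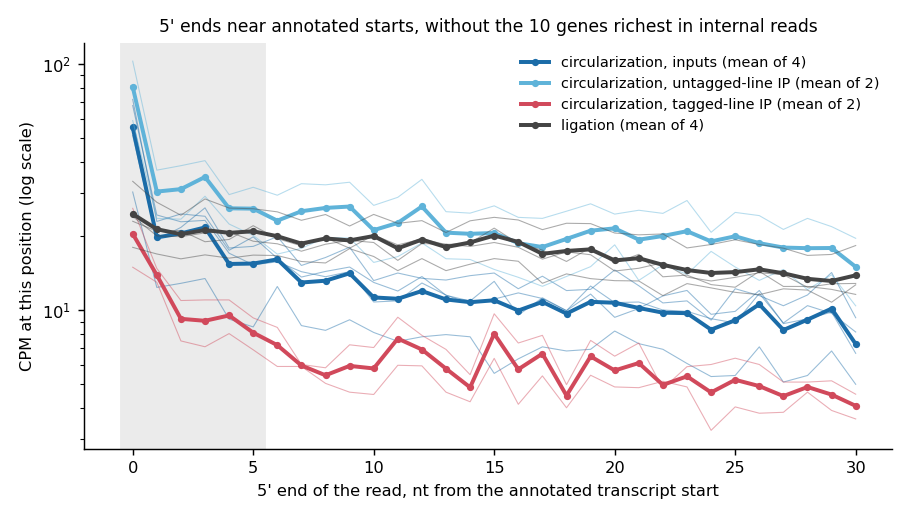
CPM of reads by the distance of their 5′ end from the nearest annotated start (log scale), with thick lines for group means, thin lines for libraries and the start positions shaded; 10 genes rich in internal reads are left out. The inputs and both IPs peak at position 0, where the inputs average 55.2 CPM, and the ligation libraries average 24.6 CPM there with little change across the next positions.

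The first base followed the same division. In the inputs A opened 45.1, 42.8, 45.1 and 51.2% of start reads, and in the ligation libraries 30.03, 29.03, 27.6 and 31.3%. T opened 14.2 ± 4.89% in the inputs and 28.0 ± 1.197% with ligation, and C 11.4 ± 0.513% and 21.3 ± 1.65% (SD, n = 4 each; exact permutation p = 0.0286 for each of the 3 bases). Within the inputs T also split by replicate code, at 10.1 and 9.82% in A and 18.3 and 18.5% in B, all below the lowest ligation value of 26.2%. G did not separate the sets (28.4 ± 7.05% and 21.2 ± 1.07%, exact permutation p = 0.143), and the untagged input B, at 18.7%, was below all 4 ligation libraries. Purines together opened 74.4 ± 4.96% against 50.7 ± 1.81% (exact permutation p = 0.0286). The annotation does not look like the input reads: among the 48193 transcript starts of genes with a start read, 24.7% are A, 41.8% G, 19.7% C and 13.8% T. Reads at the exact start opened with A in 56.4 ± 4.35% of cases in the inputs and 40.1 ± 2.31% with ligation (SD, n = 4 each), both above the annotated share of A.

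**Figure D2:**
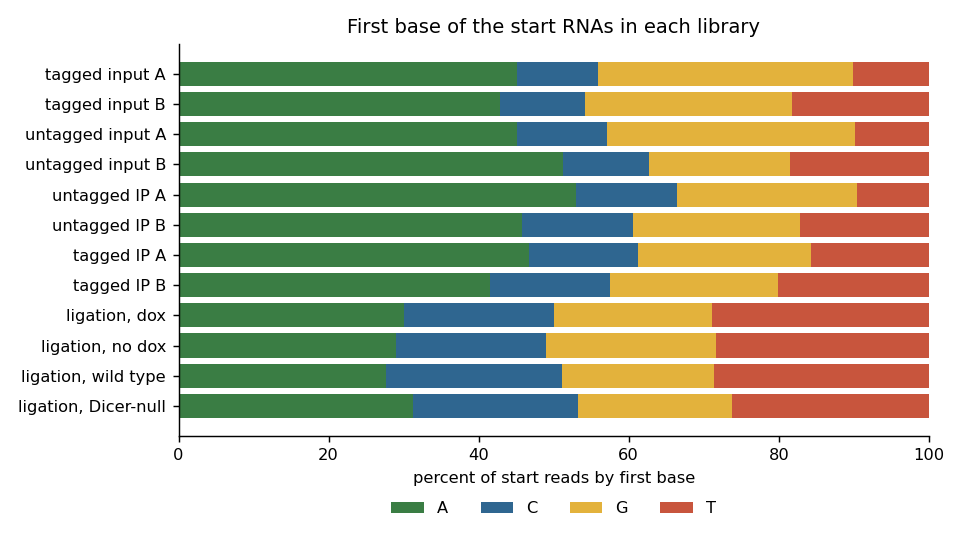
Percent of start reads that open with each base, 1 bar per library. A takes 41.5 to 52.9% of each circularization bar and 27.6 to 31.3% of each ligation bar, where T is wider.

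The step into the RNA was examined with the base before it, which is known from the transcript, or for exact starts from RefSeq promoters. A pyrimidine followed by a purine was found for 55.9, 49.1, 54.1 and 55.0% of start reads in the inputs and for 20.5, 21.4, 20.4 and 23.4% with ligation (exact permutation p = 0.0286). The ligation values lie beside the 19.9% of all such steps in the same annotated stretches. The difference between the inputs and ligation was as clear when each gene counted once. Among 123 genes with at least 10 start reads over the inputs, the main 5′ end was an A in 72, a G in 31, a C in 11 and a T in 9. It held a median of 60.0% of the gene's start reads. Among 432 such genes in the ligation libraries it was an A in 169, a T in 112, a C in 90 and a G in 61, and held a median of 35.7%. Where the base before was known, the C-then-A step seen in Txnip and Med21 made up 45 of 92 main 5′ ends in the inputs and 43 of 373 with ligation. Of 60 genes that reached 10 reads in both sets, 11 had the same main 5′ end.

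An extra, unencoded G at the 5′ end was common in the inputs and nearly missing with ligation. Among start reads with a known base before them that matched exactly or after 1 removed base, it was carried by 40.7, 35.2, 43.7 and 21.9% in the inputs and by 0.164, 0.245, 0.140 and 0.133% with ligation. The means were 35.4 ± 9.62% and 0.171 ± 0.0515% (SD, n = 4 each; exact permutation p = 0.0286), a ratio of 207. Over the 8 circularization libraries an extra T was carried by 7.30 ± 2.45% of start reads, an extra C by 1.35 ± 0.285% and an extra A by 1.16 ± 0.352% (SD, n = 8). Txnip, which encodes a thioredoxin-binding protein induced by glucose, had 183 extra-G reads in these libraries beside 123 exact ones over all 12 libraries, and none with ligation. Med21, a subunit of the Mediator complex that links enhancers to the polymerase, had 39.

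The share of extra-G reads depended on the distance from the start. Over all genes it averaged 49.6% at the exact start in the inputs, 30.3% at 1 to 5 nt, 15.4% at 6 to 20 nt, 8.02% at 21 to 50 nt and 2.94% at 51 to 99 nt, and was higher again, at 17.0%, in the last 100 positions of the first 200 nt. The untagged and tagged IPs stood at 46.2 and 41.7% at the exact start and at 4.59 and 4.48% in those last positions. Without the 10 genes richest in internal reads, which was chosen after seeing the data, the input share fell in every step, from 49.8% at the exact start over 15.4% at 51 to 99 nt to 7.66% in the last positions. Over all genes and the 8 circularization libraries, start reads carried an extra G in 30.2 ± 9.13% and reads beginning 6 nt or more into the same genes, within the first 200 nt, in 8.20 ± 3.34% (SD, n = 8). The start was higher in 8 of 8 libraries (exact two-sided sign-flip permutation test, p = 0.0078, the smallest 8 pairs allow; 0.0188 adjusted over 12 measures). Extra T was not separated between start and internal reads (7.30 and 7.16%, exact permutation p = 0.648). Extra C went the other way, at 1.35% of start and 11.8% of internal reads. It was higher at starts in 0 of 8 libraries (exact sign-flip permutation p = 0.0078, 0.0188 adjusted). In the inputs it was carried by 17.8 to 21.4% of internal reads. With ligation the extra G was at 0.171% at starts and 0.217% inside.

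**Figure D3:**
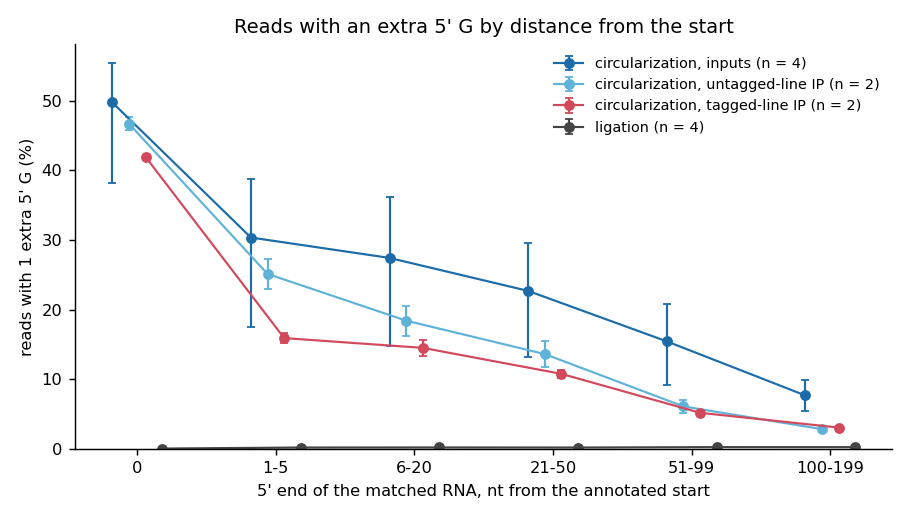
Percent of matched reads with 1 unencoded 5′ G by distance of the matched RNA from the annotated start; points are group means, bars run from the lowest to the highest library, and the 10 genes with the most internal reads are left out. Inputs, untagged-line IP and tagged-line IP fall from 49.8, 46.7 and 41.9% at position 0 to 7.66, 2.82 and 3.05% in the last bin, where they are at 17.0, 4.59 and 4.48% with all genes, and ligation reaches 0.271% at most in any library.

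The RNAs of both protocols had scattered 3′ ends rather than a single length. In the inputs the median length was 26 to 28 nt, counting reads of 40 nt or more as 40, and with ligation 23 to 25 nt (exact permutation p = 0.0286). Reads of 18 to 19 nt made up 11.3, 15.2, 11.4 and 15.9% of start reads in the inputs, more in replicate B of both lines, and 31.2, 29.6, 35.7 and 28.2% with ligation. Reads of 40 nt or more made up 17.7, 10.6, 15.7 and 11.7% against 2.56, 3.56, 2.22 and 3.30%. Both measures had no overlap (exact permutation p = 0.0286 each). The ligation files held no start reads of 38 or 39 nt, while each circularization library had 45 to 226, so shares that involve these lengths are not strictly comparable.

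For reads of 20 to 24 nt, the lengths of Argonaute cargo, the outcome depended on which reads were counted. They were 26.2 ± 3.52% of start reads in the inputs and 22.9 ± 1.43% with ligation (SD, n = 4 each; exact permutation p = 0.143). Over reads under 38 nt alone, a choice made after seeing the data, the inputs were higher by 8.03 percentage points (exact permutation p = 0.0286). Of start reads under 40 nt, 55.9, 50.1, 60.7 and 49.6% ended 25 to 39 nt from their 5′ end in the inputs and 43.8, 43.9, 41.4 and 48.4% with ligation (exact permutation p = 0.0286). Without reads of 18 and 19 nt the ligation libraries were higher by 1.35 percentage points (exact permutation p = 0.6). In the tagged IP this measure was lower, at 43.2 and 32.6%, and in the untagged IP it was 63.1 and 56.0%.

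**Figure D4:**
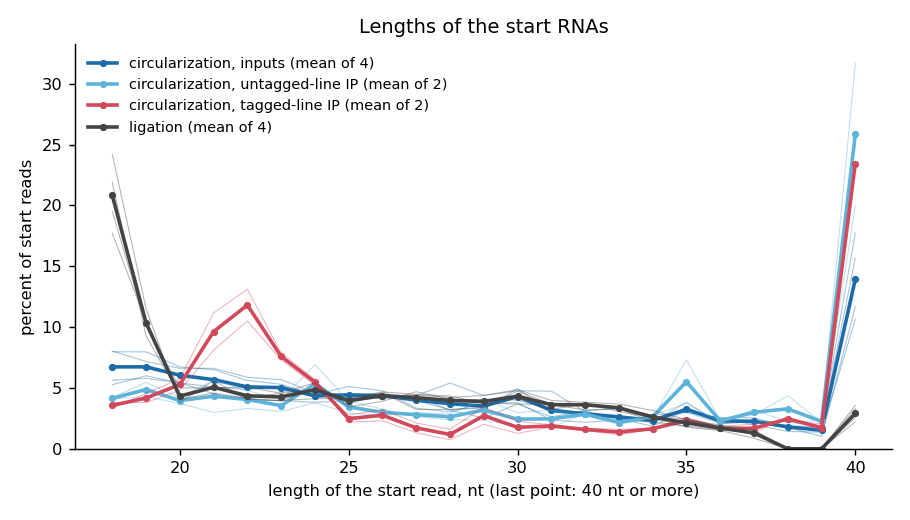
Percent of start reads by length, with thick lines for group means, thin lines for libraries and reads of 40 nt or more at the last point. Ligation is highest at 18 nt, the tagged-line IP has a peak at 21 to 23 nt beside its reads of 40 nt or more, inputs decline in the main from 18 to 39 nt, and the untagged-line IP varies over these lengths with local maxima at 24 and 35 nt.

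The last and next bases of reads under 40 nt varied less than the first base. In the inputs G was the last base of 41.2 ± 2.11% and C of 30.8 ± 1.71%, and with ligation G of 35.2 ± 2.48% and C of 26.8 ± 1.02% (SD, n = 4 each). The tagged IP ended in C more often than in G, at 36.7 ± 1.82% against 29.3 ± 1.24% (SD, n = 2). The base just after the 3′ end was a T for 15.4 ± 0.672% (tagged IP) and 17.3 ± 0.101% of reads (untagged IP; SD, n = 2 each), and for 27.0 ± 2.45% in the inputs and 25.7 ± 1.47% with ligation (SD, n = 4 each). These values are given without a test.

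Whether start RNAs stand out from the rest of the same transcripts was read as density, the 5′ ends per position at 0 to 5 nt over those from 6 nt to the end of the first 200 nt. It was 1.89, 0.692, 1.80 and 1.16 in the inputs and 1.88, 1.98, 2.27 and 2.11 with ligation, with a mean of 1.38 ± 0.564 against 2.06 ± 0.170 (SD, n = 4 each; exact permutation p = 0.0571). The direction turned when the 10 genes with the most internal reads were left out, which was chosen after seeing the data: the ligation mean was then lower by 2.56 (exact permutation p = 0.0286). It also turned when each distinct sequence counted once (lower by 2.45, p = 0.0286 by the same exact test) and with reads of at least 20 nt (lower by 0.558, p = 0.114). The same few genes weigh on other contrasts of start with internal reads. First base A was at 46.4% of start and 27.8% of internal reads in the 8 circularization libraries (exact permutation p = 0.0234), but without those 10 genes the gap was 3.35 percentage points (p = 0.281 by the same exact test).

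Single genes carried few reads, so tests gene by gene reached a small part of the set. Between protocols 16 members passed the filter on low counts and 7334 did not. With edgeR's quasi-likelihood test on library totals and Benjamini-Hochberg adjustment, 2 of the 16 were higher with ligation and 9 lower, beside 27.8% of all 36 genes in the fit higher and 58.3% lower. The median log2 difference was -1.31 in the members and -1.49 in all 36. With TMM factors 5 members were higher and 7 were lower, and with DESeq2 6 and 7. On library totals, 9 of 16 lower is near the 58.3% of the whole fit, and 2 of 16 higher is below its 27.8%. With so few members tested, these counts are not read as particular to the members.

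Txnip was at 1.40, 1.08, 1.38 and 1.52 CPM in the inputs and at 0, 0, 0 and 0.0127 CPM with ligation, where 1 read in the Dicer null library was all that was found. The groups were far apart (edgeR adjusted p = 3.4e-20, with the spread shared over the 36 genes). The filter on low counts used the same reads as this test. Txnip, B4galt5, Hnrnph1, Tuba1b, Actb and Med21 entered the fit through the inputs, where they were high. For these genes the filter and the tests were therefore not independent. B4galt5, which adds galactose to glycoproteins, was at 0.802, 0.915, 1.32 and 1.59 CPM in the inputs and had no read in the 4 ligation libraries. Hnrnph1, a splicing regulator, was at 1.81 ± 0.735 CPM in the inputs and 0.0843 ± 0.0651 CPM with ligation (SD, n = 4 each). Tuba1b, an α-tubulin, was at 1.25 ± 0.622 and 0.165 ± 0.0466 CPM, and Actb, β-actin, at 1.23 ± 0.515 and 0.224 ± 0.109 CPM. Med21 was at 1.58 ± 0.879 CPM in the inputs, higher in replicate A of both lines, and at 0.180, 0.339, 0.279 and 0.127 CPM with ligation.

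Txndc9, a thioredoxin-domain protein, went the other way. It had 59, 65, 39 and 124 start reads with ligation, or 2.12, 2.45, 1.21 and 1.57 CPM, and no read in any of the 8 circularization libraries. Its main 5′ end held 78.1% of its CPM over all libraries, and 90.6% of its reads were of 20 to 24 nt. Eif4a2, an RNA helicase of translation initiation and a TOP gene, was at 1.25 ± 0.203 CPM with ligation and 0.405 ± 0.240 CPM in the inputs (SD, n = 4 each; edgeR adjusted p = 0.0014). Txndc9 and Eif4a2 entered the fit through the ligation libraries, where they were high, so their filter and tests were not independent either. Over all 12 libraries the main 5′ end of Eif4a2, an A, held 36.2% of its CPM. In the ligation libraries alone the main 5′ end was another, a C, with 14.8%. Chchd2, a mitochondrial protein, was at 0.632 CPM on average with ligation and 0.0135 CPM in the inputs, with a main RNA of 18 nt, and Tsc22d1, a transcriptional regulator, at 0.748 and 0.0334 CPM. These last 2 did not pass the filter and were not tested.

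**Figure D5:**
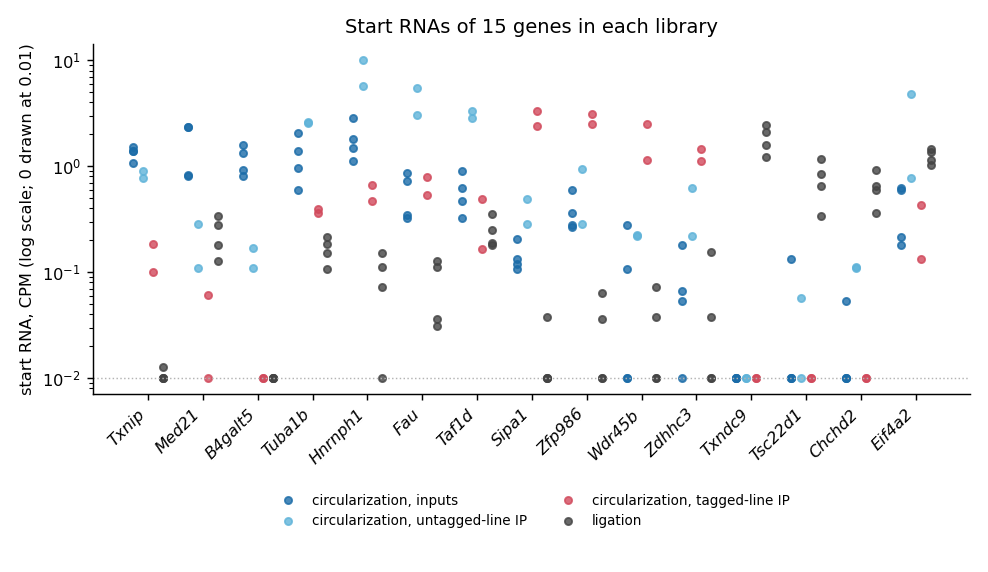
CPM of the start RNAs of 15 genes in every library (log scale, 0 drawn at 0.01), by library type. Txnip, Med21 and B4galt5 are highest in the inputs, Hnrnph1, Fau and Taf1d in the untagged-line IP, Sipa1, Zfp986, Wdr45b and Zdhhc3 in the tagged-line IP, and Txndc9, Tsc22d1 and Chchd2 with ligation.

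The tagged IP held less start RNA in all than the control IP, and of another size. Its level was 83.4 and 57.7 CPM (replicates A and B), against 281 and 179 CPM in the untagged IP, a ratio of 0.296 within A and 0.323 within B. The inputs of these lines were at 182 and 87.0 CPM and at 171 and 155 CPM. Reads that began further inside the same genes were lower too, at 974 CPM in the tagged and 3215 CPM in the untagged IP on average, so the lower level was not particular to start RNAs. The exact permutation p is 0.33, the smallest that 2 against 2 can give, so no comparison of IPs over whole libraries can pass a threshold. Reads of 20 to 24 nt made up 36.0 and 43.6% of the tagged IP's start reads, 16.9 and 25.6% in the untagged IP and 25.04 and 29.4% in the tagged input, with no overlap. Internal reads again showed the same, with 39.9% of 20 to 24 nt in the tagged and 20.7% in the untagged IP. The single most common length in the tagged IP was 22 nt. The extra G was carried by 21.5 and 19.4% with the tag, 27.7 and 31.2% in the untagged IP and 40.7 and 35.2% in the tagged input. Its reads began at the exact start in 31.2 and 26.1%, against 36.8 and 33.3% in the untagged IP. First base A did not separate the IPs (46.6 and 41.5% against 52.9 and 45.8%).

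Most genes in the tagged IP fit followed its lower level, and 5 members were called against it. Of 96 genes in the fit 48 were members, and 7302 members were not tested. In the tagged against the untagged IP 5 members were higher and 28 lower by edgeR's quasi-likelihood test with Benjamini-Hochberg adjustment, beside 5.21% of all genes higher and 72.9% lower. The members' median log2 difference was -2.62 and that of all 96 genes -2.79. This split rests on library totals: with TMM factors 7 members were higher and 0 were lower (9 had an unadjusted p under 0.05), and DESeq2 gave 7 and 0 too (8 unadjusted). The median of the members was then -0.05 and -0.003. Relative to the other start RNAs of the same IP, no member was called lower. Without the tagged IP A or B no member passed in either IP comparison (35 and 25 at an unadjusted p under 0.05 against the untagged IP, 19 and 15 against the input). Against its own input the tagged IP had 6 members higher and 5 lower, beside 6.25% and 6.25% of all genes, with medians of -1.02 and -0.66. A further library mattered there and in the control: without the tagged input A 7 members passed, and without the untagged IP A 17.

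The 5 members higher than in the untagged IP were Sipa1, Zfp986, Wdr45b, Fut9 and Tmem201. The filter on low counts used the same reads as the tests. Sipa1, Wdr45b and Zdhhc3, given below, entered the fit through the tagged IP, where they were high. For them the filter and the tests were therefore not independent. Fut9 and Tmem201 were too low in the untagged IP and the tagged input to enter through either, so the same limit is taken to hold for them. Sipa1, which turns off the GTPase Rap1, was at 2.37 and 3.29 CPM with the tag, 0.282 and 0.494 CPM in the untagged IP and 0.134 and 0.108 CPM in the tagged input (edgeR adjusted p = 0.0061 against the IP and 0.0084 against the input). None of its reads was of 20 to 24 nt: its main RNA had 41 nt. Zfp986, a zinc finger gene, was at 3.10 and 2.53 CPM, against 0.282 and 0.933 CPM in the untagged IP and 0.602 and 0.269 CPM in the input (edgeR adjusted p = 0.0182 and 0.0328). Of its reads 78.8% were of 20 to 24 nt. Of its CPM over all libraries 87.0% began at the same base, 1 nt from an annotated start. Wdr45b, a β-propeller protein of autophagy, was at 1.16 and 2.53 CPM, with 0.226 and 0.220 CPM in the untagged IP and 0 and 0.108 CPM in the input; its main RNA had 40 nt. Fut9, a fucosyltransferase that makes the stem cell antigen SSEA-1, averaged 0.922 ± 0.0124 CPM with the tag against 0.0282 ± 0.0399 CPM without it (SD, n = 2 each), with no read in the tagged input. Tmem201, a protein of the inner nuclear membrane, averaged 0.725 ± 0.180 and 0.111 ± 0.0023 CPM, again with none in the input. Zdhhc3, a palmitoyltransferase, passed against the input but, by edgeR on library totals, not against the untagged IP: it was at 1.46 and 1.13 CPM with the tag, 0.0669 and 0.0538 CPM in the input (edgeR adjusted p = 0.0243) and 0.621 and 0.219 CPM in the untagged IP (adjusted p = 0.0973). With DESeq2 it passed against the untagged IP too (adjusted p = 2.7e-05, log2 difference 4.30), and 98.8% of its reads were of 20 to 24 nt. In the 4 ligation libraries these 4 best-covered genes, Sipa1, Zfp986, Wdr45b and Zdhhc3, had 1, 6, 3 and 6 reads in all.

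Each gene once gave the same picture of size. Of 44 genes with at least 10 start reads in the tagged IP, 24 had most of them at 20 to 24 nt, against 10 of 93 in the untagged IP, 8 of 123 in the inputs and 19 of 432 with ligation. Of the 20 genes that reached 10 reads in both IPs, 18 had the same main 5′ end. These genes were chosen by their read numbers, and the counts carry no test.

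The lower members included the gene with the highest level in the untagged IP among those named here. This gene, Hnrnph1, was at 0.669 and 0.465 CPM with the tag and at 5.70 and 10.1 CPM in the untagged IP (log2 difference -3.80 ± 0.66 SE, edgeR adjusted p = 0.0049), and at 1.47 and 1.13 CPM in the tagged input. Eif4a1, a translation helicase that hosts small nucleolar RNAs, was at 0.111 ± 0.0156 and 2.14 ± 0.240 CPM, and Nop56, a core protein of those particles, at 0.0941 ± 0.0391 and 1.90 ± 1.22 CPM (SD, n = 2 each). Taf1d, a factor of RNA polymerase I, was at 0.487 and 0.166 against 2.82 and 3.35 CPM, and 77.8% of its reads were of 20 to 24 nt. Hmgn2, a nucleosome-binding protein, was at 0 and 0.0665 against 1.24 and 0.878 CPM. All 5 lost their calls with TMM factors and with DESeq2. Nop56 and Hmgn2 entered the fit through the untagged IP, where they were high, so for them the filter and the tests were not independent. Against the input, Txnip, Med21, B4galt5, Wapl and Cct7 were lower. Txnip was at 0.183 and 0.0997 CPM in the IP and 1.40 and 1.08 CPM in its input (edgeR adjusted p = 0.0186), a call it lost with DESeq2 (adjusted p = 0.0509) while the other 4 kept theirs. B4galt5 had no read in the tagged IP against 0.802 and 0.915 CPM.

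The gene lists were thinly measured and are described by counts alone. Of 24 admitted TOP genes 21 had a start read, and the list summed to 3.85 ± 0.850 CPM in the inputs and 2.94 ± 0.382 CPM with ligation (SD, n = 4 each). C opened 48.7% of its 833 start reads pooled over the 8 circularization libraries, and 63.0% of the 529 at an exact start. For all members together the mean of the 8 library shares at an exact start, not pooled, was 9.95%. Fau alone gave 98 and 56 of the 833 reads in the untagged IP A and B. Fau, its most abundant gene in the circularization libraries, mainly through the untagged IP, began with C at its main 5′ end. Eif4a2, the higher of both with ligation, had its main 5′ end at an A over all 12 libraries. In the ligation libraries alone its main 5′ end was a C. Against the untagged IP 5 of 5 tested TOP genes were lower on library totals, beside 72.9% of all 96 genes in the fit, and against the input 0 of 5. With TMM factors or DESeq2 no member of any list was lower than in the untagged IP, so these counts say nothing particular about a list. Of 24 housekeeping genes 20 had a start read, with 5.69 ± 1.88 CPM in the inputs and 2.89 ± 1.003 CPM with ligation, and of 5 tested 4 were lower than in the untagged IP on library totals, again beside 72.9% of all genes. Of 29 immediate-early and stress genes, textbook cases of polymerase pausing, 24 had a start read and summed to 2.04 ± 1.36 and 2.40 ± 1.07 CPM. Hsp90ab1, a heat-shock chaperone, was at 0.519 CPM in the inputs and 0.360 CPM with ligation on average, and Ddit4, a stress-induced mTOR inhibitor, at 0.620 and 0.0109 CPM. None of the 2 stress genes tested passed in either IP comparison.

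Of 17 nucleolar and snoRNA host genes 14 had a start read, and both tested, Eif4a1 and Nop56, were lower than in the untagged IP on library totals, beside 72.9% of all genes, but not with DESeq2 (adjusted p = 0.745 each). A opened 65.7% of their 268 reads in the circularization libraries. Of 25 pausing and capping factors 18 had one, and A opened 71.0% of 124 reads; Polr2a, the largest polymerase subunit, had 71 exact reads over the 12 libraries, and 81 extra-G reads in the circularization libraries alone. Of 26 pluripotency genes 23 had a start read, but they summed to 0.531 ± 0.0722 CPM in the inputs and 0.788 ± 0.162 CPM with ligation, and none could be tested. Trim28, a corepressor, and L1td1, an RNA-binding protein of stem cells, were the most abundant. Of 15 small-RNA pathway genes 11 had a start read and of 23 Polycomb targets 5, with none of the latter in any input. Of 14 fibroblast or feeder genes 2 had one, Fn1 and Vim.

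The ligation libraries had no replicates, so differences between them were not tested. The line with doxycycline stood at 0.811 of the same line labelled No Dox (exact binomial 95% interval 0.771 to 0.853), and the latter at 0.993 of wildtype (0.948 to 1.04). The Dicer null library stood at 1.32 of wildtype (1.27 to 1.36), and had 4001 genes with a start read beside 2089 at 78762632 against 32255916 reads. Intervals cover counting error only, since reads of 1 PCR product look like reads of several molecules. The Dicer null library kept Txndc9 at 1.57 CPM, between the wildtype value of 1.21 and the others. Its first bases, 5′ positions and lengths lay within or close to the range of the other 3 ligation libraries, with A at 31.3%, the exact start at 20.2% and 20 to 24 nt at 21.7%.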

How the data were processed

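Small RNAs of 12 libraries were analysed. The authors deposited, for each library, distinct read sequences with raw read counts, not normalized, per the files' own values. For trimming, alignment and genome build, nothing is given in the sources used here. Protocols and groups are as per the labels.

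Sequences were matched to GENCODE M21 transcripts (GRCm38; 101652 transcripts of protein-coding genes) in Python 3.11.15 with numpy 2.4.6, pandas 2.3.3 and numba 0.67.0. No genome was given, so a read unique here may still occur outside annotated transcripts. Genes that share sequence with close copies lose their shared reads. The base before an exact start came from RefSeq promoters (30666 transcripts matched). CPM uses file totals, which were 14474875 to 78762632 reads; 3 reads, the limit that a count of 0 allows, are 0.0381 to 0.207 CPM. Intervals are exact binomial (Clopper-Pearson, 95%).

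Library values were compared with exact permutation tests (scipy 1.17.1). Genes were tested by quasi-likelihood in edgeR 4.0.16 under R 4.3.3, with library totals, filterByExpr and Benjamini-Hochberg adjustment at 0.05, over start reads of all protein-coding genes; DESeq2 1.42.0 and TMM factors were alternatives. The fit was tested on simulated data.

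Named genes are the 12 highest members in the circularization and 8 highest in the ligation libraries, up to 6 increases and 6 decreases per comparison with a mean of at least 0.5 CPM and no overlap, and 2 per list; Fut9, Tmem201, Cct7 and the sequences shown were chosen after their values were seen. Members and lists were chosen with earlier results of these data known.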

Additional observations from a re-analysis of the deposited data

Results flagged for a closer look

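The level of the start RNAs moved in opposite directions from input to FLAG IP in the 2 lines. In the tagged line the IP stood at 0.525 of its input (0.459 within replicate A and 0.663 within B). In the untagged line it stood at 1.41 (1.64 within A and 1.15 within B). Both libraries of a line moved the same way. The difference between the lines was not tested.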

How the results depend on the processing

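The lower share of purines, reads of 40 nt or more and extra-G reads with ligation passed under every alternative that left out no library. Leaving out any 1 library, where the exact p cannot go below 0.0571, gave differences (ligation minus inputs, percentage points) of -25.2 to -22.1, -12.1 to -9.75 and -39.7 to -32.4. For 3′ ends at 25 to 39 nt this range was -11.2 to -7.49. That measure missed the threshold with distinct sequences (-7.44), reads under 38 nt (-7.87) and all 8 circularization libraries (-7.02), and was 1.35 with reads of 20 nt or more. The share of 20 to 24 nt was 2.89 with reads of 20 nt or more and -8.03 under 38 nt, where it passed. Density gave 0.740 without the 10 most abundant genes and 0.795 with basic transcripts, both past the threshold, and reversed with distinct sequences (-2.45), reads of 20 nt or more (-0.558) and without the 10 genes with the most internal reads (-2.56). Start against internal reads, first base A missed the threshold with distinct sequences (0.552), 20 nt or more (12.2) and without those genes (3.35), and distinct sequences ended the call for 18 to 19 nt (-2.31) and 40 nt or more (1.51). Calls among members fell to 7 with TMM factors and to 7 with DESeq2 in the IP comparison, and without a filter were 8 there, 7 against the input and 86 by protocol. Leaving out 1 library gave 0 to 34, 0 to 14 and 11 to 27 calls; the 24 to 27 without 1 input come with 32 to 37 members tested. Libraries of the same title code, A or B, also share a read length, and T opened more start reads in B (17.1 to 20.1%) than in A (9.54 to 15.7%) in each of the 4 pairs. Deviations of same-coded libraries correlated at 0.07 to 0.47, not over 0.1 in every pair, and as a replicate block the codes gave 37 and 12 calls. Reads under 40 nt alone show their 3′ ends in every library, and most members have too few reads for a test. The cause of these changes was not tested.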
